A study of Mus musculus with 7 samples.

Results

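The spermatogenesis genes outside meiosis and fertilization were the coding genes of the table of *Ctcf*-cKO and wild-type testis expression that carry a biological process term of the Gene Ontology with the words spermatogenesis, spermatid or sperm chromatin, and no term of meiosis, synapsis, DNA repair or recombination, fertilization, the acrosome or capacitation. They were 128 of the 3997 coding genes of the table, counted once by the first gene symbol of a row, on 129 rows. *Gm14345* has 2 rows, of which the first stands for it. RNA came from seminiferous tubules of mice aged 12 to 15 weeks, 3 wild-type and 4 *Ctcf*-cKO, on a C56BL/6J background (strain as spelled by the study), and each mouse had its own Affymetrix mouse transcriptome array 1.0. *Ctcf* encodes CTCF, a zinc finger protein that binds DNA and shapes chromatin loops. *Ctcf*-cKO mice were *Stra8-iCre-Ctcf* f/Δ, with 1 *Ctcf* allele already excised and the other floxed. In them the Stra8 promoter drives the Cre recombinase in spermatogonia and pre-leptotene spermatocytes, while Sertoli cells, Leydig cells and spermatogonia still hold CTCF by the study's own staining. The wild-type mice were littermates without the deletion, for which the study's methods allow floxed or wild-type *Ctcf* alleles. Every row of the table had been kept by the authors for a linear fold of at least 2 and an unadjusted p of at most 0.05. The table gives the authors' mean of each genotype on a log2 scale and 0 columns of single arrays. Neither a spread over mice nor a test of genotypes could therefore be computed, and the few arrays limit how precise each value is. The authors' own p-values and adjusted p-values of each row were not used here. *Ctcf* itself has 0 rows, so the deletion could not be checked here.

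In spermatogenesis, spermatogonia divide, spermatocytes pass through meiosis, and the resulting round spermatids are remodelled into sperm during spermiogenesis. Spermiogenesis replaces histones, shapes the nucleus with a microtubule skirt called the manchette, and builds a flagellum from an axoneme with accessory fibres. Round spermatids store many mRNAs in germ granules such as the chromatoid body for later translation. Sertoli cells nurse the germ cells under follicle-stimulating hormone, and Leydig cells between the tubules make testosterone under luteinizing hormone. Spermatids use their own promoter code, in which CREM, a factor of the cyclic AMP response element (CRE), and RFX2, a factor of the X-box, act on many genes.

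The promoters shown here are the 120 bases before the RefSeq transcript start, 5′ to 3′ on the gene's strand, of genes of the set that hold a motif of either factor. The first 4 hold the CRE, TGACGTCA, in capitals. They belong to *Ccin* (chr4:43983384-43983503, plus strand), which encodes calicin of the sperm head cytoskeleton, to *Spag6* (chr16:16829364-16829483, minus strand, RefSeq symbol *Spag6l*), of the central apparatus of the axoneme, to *Mycbpap* (chr11:94521503-94521622, minus strand), a partner of a Myc-binding protein, and to *Gm3706* (chrX:4037554-4037673, plus strand, RefSeq symbol *Btbd35f3*), a relative of the germ cell-less gene. Positions are those of GRCm38.p6.
Ccin: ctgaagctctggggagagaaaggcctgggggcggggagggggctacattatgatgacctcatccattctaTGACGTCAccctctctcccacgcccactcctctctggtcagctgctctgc
Spag6: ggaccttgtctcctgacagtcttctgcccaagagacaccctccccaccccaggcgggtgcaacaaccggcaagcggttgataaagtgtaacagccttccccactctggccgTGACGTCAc
Mycbpap: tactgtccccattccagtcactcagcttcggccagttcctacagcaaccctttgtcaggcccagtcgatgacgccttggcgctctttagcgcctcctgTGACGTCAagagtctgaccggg
Gm3706: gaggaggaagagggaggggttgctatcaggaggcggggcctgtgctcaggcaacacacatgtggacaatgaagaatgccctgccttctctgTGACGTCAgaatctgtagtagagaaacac

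The other 4 hold GTTGCC, an arm of the palindromic X-box, in capitals on either strand, where the reverse complement reads GGCAAC. They belong to *Spag16* (chr1:69826850-69826969, plus strand), of the central apparatus, to *1110017D15Rik* (chr4:41507765-41507884, minus strand), to *Odf3* (chr7:140847796-140847915, plus strand), named for the outer dense fibres of the flagellum, and to *Chd5* (chr4:152338531-152338650, plus strand), a chromatin remodeller. *Spag16* and *1110017D15Rik* each have 2 arms in opposite orientation with a short gap between them. The order of the arms differs, with GGCAAC first in *Spag16* and GTTGCC first in *1110017D15Rik*. Only exact copies of either run were marked, so inexact arms stay in small letters, and whole X-boxes were not searched.
Spag16: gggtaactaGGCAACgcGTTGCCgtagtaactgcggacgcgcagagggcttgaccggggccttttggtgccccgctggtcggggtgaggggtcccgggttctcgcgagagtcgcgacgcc
1110017D15Rik: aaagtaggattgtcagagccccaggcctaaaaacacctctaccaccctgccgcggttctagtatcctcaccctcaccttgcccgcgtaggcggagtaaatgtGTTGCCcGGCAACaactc
Odf3: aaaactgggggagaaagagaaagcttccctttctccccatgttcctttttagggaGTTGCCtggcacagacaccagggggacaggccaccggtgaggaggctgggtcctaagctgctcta
Chd5: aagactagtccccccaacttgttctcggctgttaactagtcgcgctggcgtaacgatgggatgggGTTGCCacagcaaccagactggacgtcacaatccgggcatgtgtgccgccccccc

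Of the 128 genes, 107 (83.6%) had a lower and 21 a higher signal in *Ctcf*-cKO mice, whereas a lower signal was found for 61.3% and a higher one for 38.7% of all coding genes in the table. The differences of the 107 lower genes, *Ctcf*-cKO minus wild-type on the log2 scale, ran from -1.97 to -1.01 with a median of -1.32, beside a median of -1.29 for all lower coding genes. Among the lower genes, 17 (15.9%) were lower by a linear fold of at least 3, beside 13.0% of all lower coding genes. The 21 higher genes ran from 1.01 to 2.97 with a median of 1.53, beside 1.33 for all higher coding genes, and 9 of them (42.9%) were past a linear fold of 3, beside 26.6% of all higher coding genes. The share of lower genes was thus above that of the table, and the sizes of the lower differences were close to those of all lower coding genes. Neither comparison was tested, since genes are not replicates of a genotype. Because rows were selected by fold and p, a gene of spermatogenesis with no row has no value here, and the median of all 7580 rows was -1.145 rather than 0. When each difference was re-centred on that value, 86 of the 107 lower genes lay below 0 and 21 above 0, while 76.7% of all lower coding genes lay below 0. Re-centring takes the same amount from every row, so these counts, here and by group, only say which genes lie beyond -1.145 and are no check of their stability. The study's methods name seminiferous tubules as the source of the RNA, while the sample titles name testes. In RNA of whole tissue, fewer cells of a type, less RNA per cell and an unequal amount of tissue from between the tubules cannot be told apart.

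**Figure D1:**
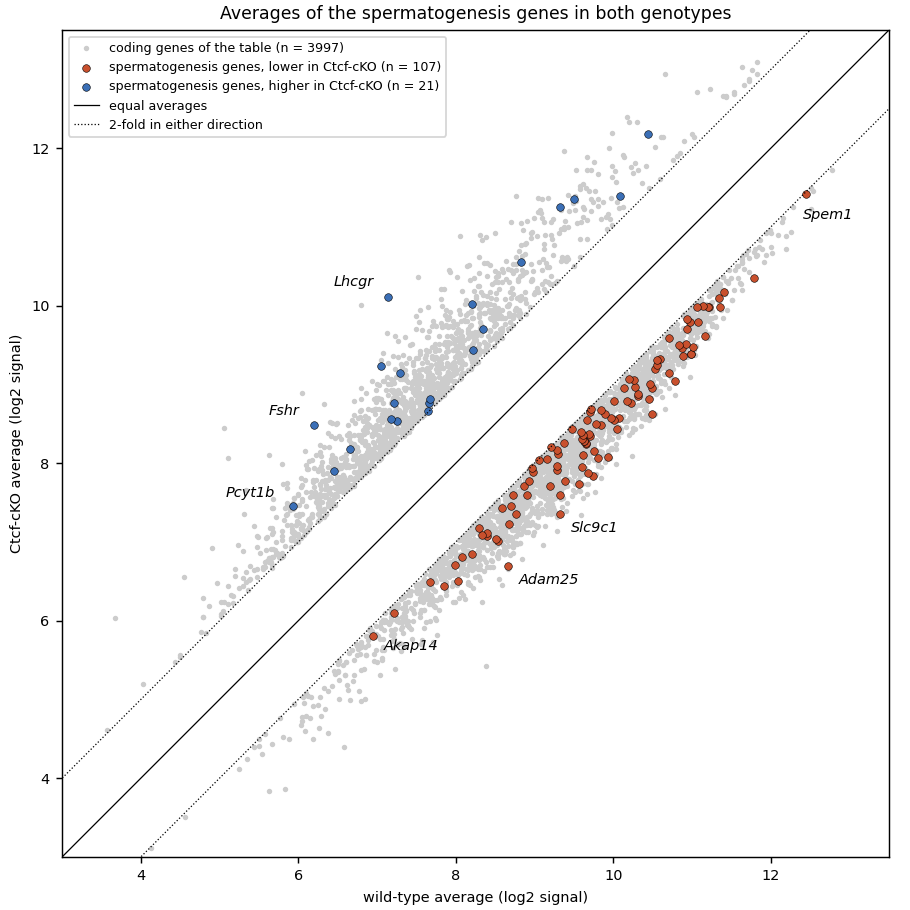
Authors' mean log2 signal in wild-type (x axis) and *Ctcf*-cKO (y axis) of the 107 lower and 21 higher spermatogenesis genes over all 3997 coding genes of the table, with 1 point a gene. The empty band between the dotted lines is the authors' selection at a linear fold of 2. The lower genes lie along its lower edge between wild-type averages of 6.95 and 12.45, and *Lhcgr* stands farther above it than the other 20 higher genes of the set.

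The genes were grouped by role after their values had been seen, with separate groups for lower and higher genes, so that a group of 1 direction follows from the grouping. The lower genes of the flagellum and the cilium were 16, with a median difference of -1.38 and 6 past a linear fold of 3. *Slc9c1* (chr16:45535266-45607001, plus strand, mm10), a sodium-proton exchanger of sperm needed for motility, averaged 9.32 in wild-type against 7.35 in *Ctcf*-cKO, a difference of -1.97. *Spag16* (chr1:69826970-70725132, plus strand) averaged 9.74 and 7.84, a difference of -1.90. The same central apparatus holds the product of *Spag6*, with averages of 10.92 and 9.51. *Nme5* and *Nme8*, of the nucleoside diphosphate kinase family of axonemes, were lower by nearly the same amount, with differences of -1.62 and -1.60. The calcium channel of the sperm tail was present with *Catsper1*, a pore subunit at 10.01 and 8.55, and *Catsperg2*, an accessory subunit at 11.41 and 10.17. Other differences of the group were those of the outer dense fibre genes *Odf3* (-1.35) and *Odf4* (-1.19), of *Txnrd3*, a thioredoxin and glutathione reductase (-1.23), and of *Ift81*, a carrier of intraflagellar transport (-1.19). *Ccdc135*, *Ak7*, *Akap14* and *Alms1* were also in this group. In the wider list of 59 flagellum genes, 46 had a coding row, and all 46 were lower with a median of -1.40. This list and those of the groups below were written with earlier results of these data known. Their counts are therefore a description and no independent support, and 61.3% of all coding genes were lower. After re-centring, 13 of the 16 genes lay below 0.

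The group of proteases and ubiquitin ligases had the most negative median of the role groups, -1.54, over 9 lower genes. The largest differences belong to the ADAM family of membrane proteins with a metalloprotease domain, many of which are made in germ cells. *Adam25* (chr8:40752208-40756176, plus strand) averaged 8.66 in wild-type against 6.69 in *Ctcf*-cKO, a difference of -1.97 and a linear fold of 3.92. The averages were 10.49 and 8.62 for *Adam18*, and 9.93 and 8.08 for *Adam1b*. *Adam24* followed with 9.57 and 7.74, and *Adam26a* with 8.03 and 6.50. All 5 genes therefore differed by between -1.97 and -1.53. *Adam24* and *Adam25* are neighbours on chromosome 8, on the plus strand and 70008 bases apart. As genes of the same family they could share probes, which was not tested. *Rnf151*, a RING finger protein of spermatids, averaged 10.49 and 8.95. The serine protease genes *Prss21*, *Prss42* and *Prss43* were lower as well, of which *Prss42* and *Prss43* lie 22945 bases apart on chromosome 9. Over the wider list of 30 genes of ubiquitin and proteolysis, 20 had a coding row, with 18 lower and 2 higher.

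Lower genes of head shaping and the cytoskeleton were 13, with a median of -1.32. *Capza3*, the testis subunit of the actin capping protein, had the largest difference of the group, with 9.60 in wild-type against 7.95 in *Ctcf*-cKO. *Sun5*, which ties the nuclear envelope to the flagellum, averaged 10.32 and 8.88. *Gmcl1*, a germ cell-less gene outside the X chromosome, averaged 10.26 and 9.06, and *Ccin* 8.59 and 7.43. The differences of *Spata16* (-1.57), *Hook1* (-1.14) and *Spem1* (-1.03) spanned the group, from past the median to nearly the edge of the table. *Hook1* and *Spem1* were among the 4 genes of the group that lay above 0 after re-centring. *Dpy19l2*, *Fscn3*, *Micalcl*, *Aspm* and *Tubd1* were also in this group. Of 26 listed genes of head shaping and the manchette, 16 had a coding row and all 16 were lower.

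The 4 lower sperm chromatin genes had a median of -1.21. *Chd5* averaged 10.17 in wild-type against 8.79 in *Ctcf*-cKO, a difference of -1.38. *H1fnt* and *Hils1*, which encode linker histones of spermatids, had differences of -1.29 and -1.12, and *Prm3*, named for the protamines, one of -1.04. After re-centring, 2 of the 4 lay below 0, and *Hils1* and *Prm3* did not. *Prm1*, *Prm2*, *Tnp1* and *Tnp2*, the protamine and transition protein genes, have 0 rows each. The study reported the RNA of *Prm1* and *Prm2* as not down-regulated, so for them a missing row does not mean a missing measurement. For the proteins, it found less PRM1 in *Ctcf*-cKO sperm, while PRM2 seemed unchanged. In the wider list of 25 genes, 7 had a coding row and all 7 were lower.

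**Figure D2:**
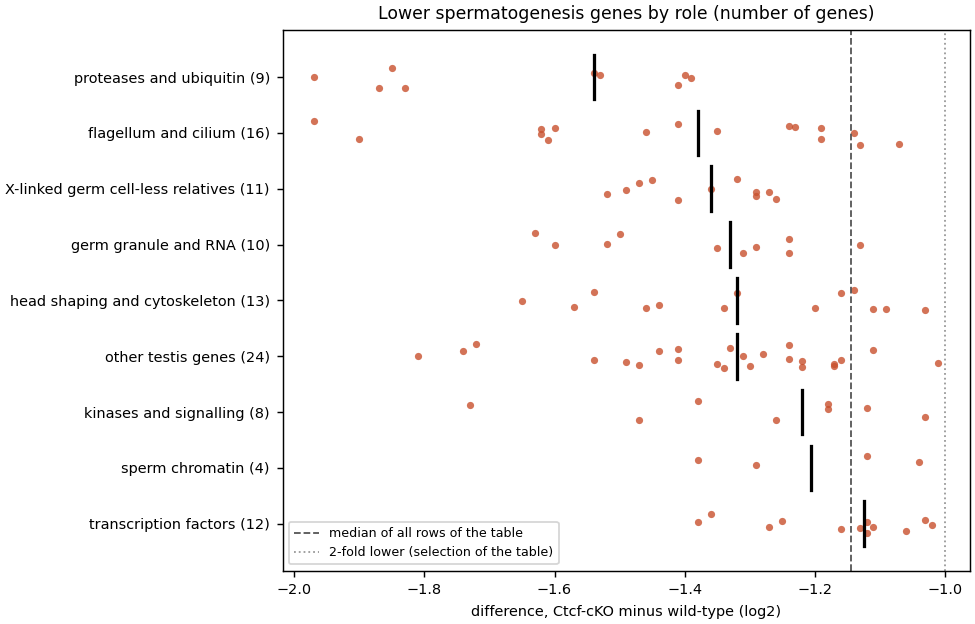
Differences between the authors' means (*Ctcf*-cKO minus wild-type, log2) of the 107 lower genes by role, with 1 point a gene, the group's median as a black bar, and the number of genes in parentheses. Medians run from -1.54 for the proteases to -1.12 for the transcription factors, whose median lies to the right of the dashed line, the median of all rows at -1.145.

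Lower germ granule and RNA genes were 10, with a median of -1.33, and 9 lay below 0 after re-centring. *D1Pas1*, a DEAD-box RNA helicase related to *Ddx3x*, averaged 10.45 in wild-type against 8.82 in *Ctcf*-cKO. The tudor domain genes of the granules were *Tdrd6* at 10.99 and 9.39, *Tdrd5* at 9.63 and 8.28, and *Tdrd7* at 10.20 and 9.07, with *Rnf17*, also of tudor domains, at 9.61 and 8.11. The tudor differences thus ran from -1.60 for *Tdrd6* to -1.13 for *Tdrd7*, the one gene of the group above 0 after re-centring. *Ddx25*, the RNA helicase that carries and stores spermatid mRNAs, averaged 10.94 and 9.70, and the RNA-binding gene *Adad1* 10.55 and 9.31. *Tsnaxip1*, a partner of the translin-associated factor X, averaged 10.88 and 9.36. *Rpl10l* and *Rpl39l*, germ cell copies of ribosomal protein genes, were the other genes of the group. The chromatoid body is a cellular component term, which the choice of genes did not use. As a structure of spermatids it overlaps in meaning with the process terms that were used, so a higher share can follow from that choice. The term was given to 4 of the 106 lower genes with any cellular component term (3.77%), *Ddx25*, *Tdrd5*, *Tdrd6* and *Tdrd7*, and to 3 of 1723 other lower coding genes (0.174%). Those other genes include the ones set aside for terms of meiosis or fertilization. Of 46 listed germ granule and RNA genes, 27 had a coding row and all 27 were lower.

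The 12 lower transcription factors had a median of -1.12, the least negative of the role groups, and 5 lay below 0 after re-centring. *Mtl5*, which encodes tesmin, averaged 9.71 in wild-type against 8.35 in *Ctcf*-cKO, a difference of -1.36. *Tcfl5*, a basic helix-loop-helix factor of spermatocytes and spermatids, averaged 10.59 and 9.32. *Creb3l4*, a membrane-bound factor of the CREB family, averaged 9.67 and 8.55, and *Zmynd15*, a repressor in haploid germ cells, 8.97 and 7.94. The zinc finger genes *Zfp35*, *Zscan21*, *Zfp37* and *Zfp39* had differences of -1.25, -1.16, -1.13 and -1.12. *Zfp105* was near the edge of the table at -1.02, and *Zfp541*, *Nr6a1* and *Sfmbt1* completed the group. Of 35 listed transcription factors, 25 had a coding row, all lower, with a median of -1.17.

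The lower kinase and signalling genes were 8. *Adcy10* (chr1:165485183-165576774, plus strand), the soluble adenylyl cyclase that makes cyclic AMP in sperm, averaged 10.78 in wild-type against 9.05 in *Ctcf*-cKO, a difference of -1.73, and was the only gene of this group past a linear fold of 3. Among the testis-specific serine kinases, *Tssk2* averaged 11.36 and 9.98, *Tssk4* 9.30 and 8.12, and *Tssk6* 9.72 and 8.69. *Tssk1* started from 10.47 in wild-type and differed by -1.47. *Tssk1* and *Tssk2* lie 2983 bases apart on the plus strand of chromosome 16 and are close relatives, so that their probes could be shared. *Tssk6* lay above 0 after re-centring. *Cdc25c*, a phosphatase that starts cell division, averaged 7.67 and 6.49, and *Dzip1*, named as a partner of DAZ, 9.62 and 8.36. *Tesk2*, a testis kinase, was the remaining gene. The list of 28 kinases, phosphatases and cyclins had 20 coding rows, all 20 lower.

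**Figure D3:**
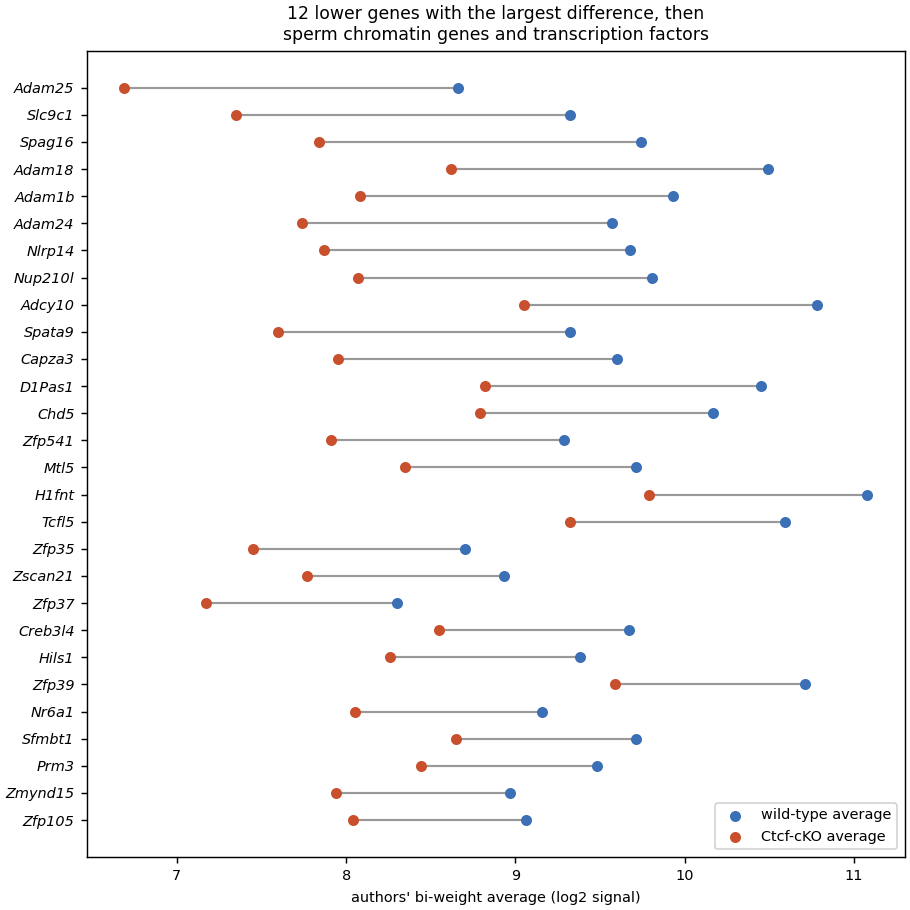
Authors' mean log2 signal in wild-type (blue) and *Ctcf*-cKO (red) of the 12 lower genes with the largest differences, followed by the sperm chromatin genes and the transcription factors in order of their difference. The line between the points is the difference, which shortens from -1.97 for *Adam25* to -1.02 for *Zfp105*. Levels of different genes are read by different probes and are not comparable.

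The lower genes that fitted no other role were 24, with a median of -1.32. *Nlrp14*, of the NLR family and made in germ cells, averaged 9.68 in wild-type against 7.87 in *Ctcf*-cKO. *Nup210l*, a germ cell relative of a nuclear pore gene, averaged 9.81 and 8.07, and *Spata9* 9.32 and 7.60. These 3 genes were the ones of the group past a linear fold of 3. *Pdilt* and *Calr3*, chaperones of the endoplasmic reticulum of germ cells, had equal differences of -1.41, and *Hspa1l*, a heat shock protein of spermatids, one of -1.22. *Spata19*, of sperm mitochondria, differed by -1.54, and *Spata31*, *Theg*, *Spata32*, *Spata20* and *Spata24* by -1.35 to -1.17. *Galntl5*, of the polypeptide GalNAc transferase family, averaged 11.79 and 10.35, and *1110017D15Rik* 11.34 and 10.10. *Gykl1*, a glycerol kinase relative at 9.21 and 8.20, had the smallest difference of all 107 lower genes, -1.01. Both it and *Pgam2*, a phosphoglycerate mutase, lay above 0 after re-centring. *Mycbpap*, *Ccdc33*, *Tbata*, *Prok2*, *C330027C09Rik*, *Ddias*, *Aqp7* and *Acsbg2* were the other genes of this group.

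The X-linked relatives of the germ cell-less gene were 11 genes on 12 rows, all lower, with differences from -1.52 to -1.26 by gene. Their rows lie in 2 stretches of the X chromosome (mm10), 8 rows between 3076875 and 4802359 and 4 rows between 31381959 and 32975846. Wild-type averages were between 7.99 and 9.89, and *Ctcf*-cKO averages between 6.70 and 8.63. The 2 rows of *Gm14345* differed by -1.24 and -1.49. These genes are related copies: 7 of the 12 rows name more than 1 gene symbol, and the RefSeq promoter windows of *Gm3706* and *Gm3750* are equal at 300 of 300 bases. The window of *Gm21951*, the only other gene of the family with one, equals them at 96 of 300 bases as given and at 217 of 272 bases (79.8%) when moved by 28 bases. Their rows are therefore uncertain as separate measurements. Another 7 coding rows are described as germ cell-less relatives but do not meet the term rule, and all 7 were lower too, by -1.53 to -1.13. Without the 11 X-linked genes, 96 of 117 spermatogenesis genes (82.1%) were lower. Apart from this family, the X chromosome held the lower gene *Akap14* and the higher genes *Nr0b1*, *Pcyt1b* and *Bcap31*. The Y chromosome held 0 of the 128 genes, although 307 coding genes of the table lie on it.

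Of the 21 higher genes, 6 were receptors, hormones and their signalling genes, with a median of 1.85. *Lhcgr*, the receptor of luteinizing hormone on Leydig cells, had the largest difference of the whole set, 2.97, a linear fold of 7.84. *Fshr*, the receptor of follicle-stimulating hormone on Sertoli cells, averaged 6.20 in wild-type against 8.48 in *Ctcf*-cKO, a difference of 2.28. Both hormone receptors signal through G proteins, and *Rgs2*, a regulator of G protein signalling, averaged 7.05 and 9.24. *Dhh*, the hedgehog ligand that Sertoli cells send to Leydig cells, averaged 7.17 and 8.56. *Nr0b1*, the nuclear receptor DAX1 that represses steroid synthesis, averaged 8.35 and 9.70, and *Lgr4*, a receptor of R-spondins, 6.66 and 8.18.

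*Lhcgr* and *Fshr* lie close to each other on the minus strand of chromosome 17, at 88716483 to 88791976 and 88984952 to 89200675 (mm10). The coding row next to *Lhcgr*, at 88668660 to 88715152 on the plus strand, is *Gtf2a1l*, a general transcription factor subunit of germ cells, which is not in the set. *Gtf2a1l* averaged 10.94 in wild-type against 9.35 in *Ctcf*-cKO, a difference of -1.59. Neighbouring coding genes at this locus thus differed in opposite directions. *Gtf2a1l* was singled out after its values were seen. Within 100000 bases of the higher genes, 16 of 18 coding genes outside the set were higher and 2 lower (11.1%), and around all higher coding genes 44.2% of 939 neighbours were lower. Around the lower genes, 57 of 85 such neighbours (67.1%) were lower, beside 73.9% of 1543 around all lower coding genes. The counts around all lower or all higher coding genes left out no coding gene, related copies and genes of the Y chromosome included. The shares of the set and of all coding genes are therefore unlike measures and were not tested.

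The second group of higher genes belongs to the Sertoli cell's junctions, uptake and secretion, with 5 genes and a median of 1.81. *Cldn11*, the claudin of the blood-testis barrier, averaged 9.50 in wild-type against 11.35 in *Ctcf*-cKO. *Mertk*, the receptor kinase with which Sertoli cells engulf dead germ cells, averaged 7.29 and 9.14. The 2 genes had the same difference of 1.85. *Wipf3*, an actin regulator of Sertoli cells, averaged 8.21 and 10.02, and *Ctsl*, a lysosomal protease that Sertoli cells secrete, 10.44 and 12.18. *Serpina5*, a secreted protease inhibitor, averaged 10.08 and 11.40, the smallest difference of the group at 1.32.

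The remaining 10 higher genes were enzymes and other genes of wide or somatic expression, with a median of 1.37. *S100a11*, a calcium-binding protein, averaged 9.32 in wild-type against 11.26 in *Ctcf*-cKO, although its row also names *Gm12854* and *Gm5068*. *Crtap*, which takes part in collagen hydroxylation, averaged 8.83 and 10.56. These 2 genes were the ones of the group past a linear fold of 3. *Pgm3*, of the synthesis of UDP-N-acetylglucosamine, averaged 7.22 and 8.76, and *Pcyt1b*, of phosphatidylcholine synthesis, 5.93 and 7.46. *Birc3*, an inhibitor of apoptosis, averaged 6.45 and 7.90. *Gamt*, the last enzyme of creatine synthesis, averaged 7.25 and 8.54, and *Bcap31*, of the endoplasmic reticulum membrane, 8.22 and 9.44. Small differences were those of *Inpp5b*, an inositol phosphatase (1.10), and *B4galnt1*, which makes complex gangliosides (1.01).

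**Figure D4:**
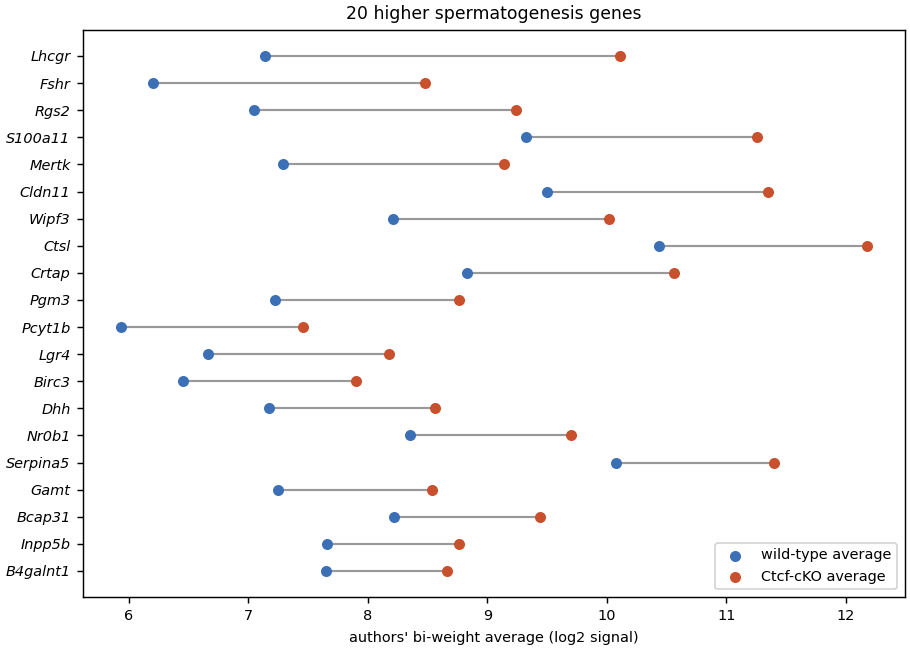
Authors' mean log2 signal in wild-type (blue) and *Ctcf*-cKO (red) of 20 of the higher spermatogenesis genes, in order of their difference. *Lhcgr*, *Fshr* and *Rgs2* lead with differences of 2.97, 2.28 and 2.19, and *B4galnt1* closes the order at 1.01.

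Markers of somatic and germ cells of the testis differed in the same 2 directions. Of 8 Leydig cell markers 7 had a row, and all 7 were higher by 1.39 to 2.97, and of 13 Sertoli cell markers 12 had a row, all higher by 1.11 to 2.28. Markers of peritubular myoid cells were higher at 4 of 6, of macrophages at 5 of 7 and of endothelial cells at 2 of 5, with 0 lower, and the other markers of these types had no row. Of 9 spermatogonium markers only *Kit* had a row, at 2.28. The primary spermatocyte had 8 of 10 markers with a row and the round spermatid 10 of 11, all 18 lower, with medians of -1.27 and -1.42. Of 11 elongating spermatid markers, *Prm3* and *Akap4* had a row and both were lower, by -1.04 and -1.02. *Lhcgr* is itself among the Leydig cell markers, *Fshr*, *Cldn11* and *Dhh* are among those of Sertoli cells, *Tssk1*, *Tssk2* and *Spata16* among those of round spermatids and *Prm3* among those of elongating spermatids. The part of a changed share of cell types in the differences of the set was not tested.

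Of all 186 genes with a spermatogenesis term, the set held 128, and of the 23 higher ones among them it held 21. Of the 186 genes 87.6% were lower, beside 61.3% of all coding genes. The 35 genes with a term of fertilization, the acrosome or capacitation were all lower, with a median of -1.26, as were the 5 genes with terms of both kinds. Of the 18 genes with a term of meiosis, synapsis, repair or recombination, 16 were lower and 2 higher. These shares were not tested either.

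The location terms of the Gene Ontology, which the rule did not use, differed between the lower and the higher genes, again without a test. They may overlap in meaning with the process terms that the rule used. Among the 106 lower genes with a location term, nucleus was given to 55 (51.9%), cilium to 9 (8.49%), motile cilium to 6 (5.66%) and acrosomal vesicle to 6 (5.66%), whereas among 1723 other lower coding genes these shares were 21.7%, 4.18%, 1.10% and 2.38%. Terms of wide use were more frequent too, with cytoplasm at 41.5% beside 22.8% and membrane at 24.5% beside 18.6%. Plasma membrane (5.66% beside 7.60%), extracellular space (0.00% beside 1.39%) and lysosome (0.00% beside 0.406%) were less frequent. The set required a process term and the other genes did not, so fuller annotation and location cannot be told apart. The nuclear matrix term was given to 12 lower genes, which were *Gmcl1* and the 11 X-linked relatives. Of the 21 higher genes, 8 (38.1%) had the term plasma membrane and 6 (28.6%) extracellular space, beside 22.4% and 9.52% of 1386 other higher coding genes, and 0 of the lower genes had the term extracellular space. Among the terms of molecular function, protein-hormone receptor activity was given to 3 of the 21 higher genes, to 0 of 1352 other higher coding genes and to 0 of 105 lower genes of the set.

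RefSeq promoter windows, from 250 bases before to 50 bases after a transcript start, were found for 95 of the 128 genes by gene ID, with 92 windows for the lower and 20 for the higher genes. The CRE was present in 6 of the 92 windows of lower genes (6.5%), in 0 of the 20 of higher genes, in 2.3% of 1862 windows of other lower coding genes and in 1.8% of all 32851 windows. Besides the promoters of *Ccin*, *Spag6*, *Mycbpap* and *Gm3706* printed above, the windows with a CRE were that of *Gm3750*, equal to that of *Gm3706*, and that of *Nr6a1*, where it begins 36 bases into the transcript. In *Ccin*, *Gm3706*, *Mycbpap* and *Spag6* its first base lay at positions -50, -29, -22 and -9 from the start. *Mycbpap*, *Gm3706* and *Nr6a1* were named for this motif after it had been found. Without the X-linked family the share was 4 of 89 windows (4.5%), so that 2 of the 6 windows rest on copies of 1 promoter.

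The X-box arm was present in 23 of the 92 windows of lower genes (25.0%) and in 24.7% of those of other lower coding genes. It was present in 2 of the 20 windows of higher genes (10.0%), in 10.4% of those of other higher coding genes and in 12.5% of all windows. The share in the lower spermatogenesis genes was thus that of lower coding genes at large, and that in the higher genes was near the share of all promoters. In *Spag16* the pair of arms began at positions -111 and -103, and in *1110017D15Rik* at -18 and -11. TATAAA was present in 4 of 92 windows of lower genes (4.3%), beside 9.9% of other lower coding genes and 13.6% of all windows, and CCAAT in 39.1%, beside 37.4% of other lower coding genes and 37.4% of all windows. TGACG, the core that every CRE also contains, was present in 26.1% of the windows of lower genes, in 18.4% of those of other lower coding genes and in 20.8% of all windows. The CTCF core, searched as the run AGAGGGC, the run AGATGGC, the run AGGGGGC or the run AGGTGGC, was present in 28.3% of the windows of lower genes and 21.3% of those of other lower coding genes, in 35.0% of the windows of higher genes and 33.4% of those of other higher coding genes, and in 27.6% of all windows. All motifs were searched on both strands. A match is a run of letters and no evidence of binding, and a gene can have several windows.

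**Figure D5:**
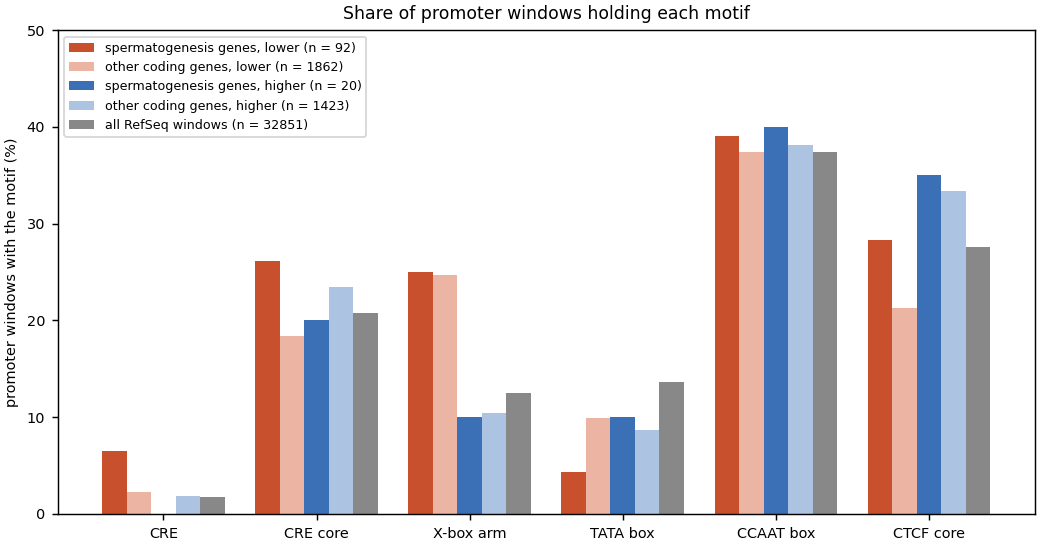
Share of RefSeq promoter windows (y axis, %) that hold each motif on either strand, for the lower (92 windows) and higher (20 windows) spermatogenesis genes, the other lower and higher coding genes of the table and all 32851 windows. The X-box arm stands at 25.0% and 24.7% in both lower sets and near 10% in both higher sets, and the CRE at 6.5% in the lower spermatogenesis genes.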

How the data were processed

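Total RNA of seminiferous tubules from 3 wild-type and 4 *Ctcf*-cKO mice was hybridized by the authors to 1 array per mouse. According to the submitters' processing notes, the authors used Affymetrix Expression Console 1.4.1, RMA and Transcriptome Analysis Console 3.0 with build mm10. The deposited table holds, for each transcript cluster, the authors' bi-weight average of log2 signal per genotype, written with decimal commas, and the number of probes, a count that was used as deposited. Its columns of the authors' fold changes, p-values and adjusted p-values were not used. Differences were computed here from the averages, which are rounded to 2 decimals, with Python 3.11.15 and pandas 2.3.3. The table's classes Coding and Complex both counted as coding genes. Values by name were given, with those exceptions stated at the end, for every higher gene, the 12 lower genes with the largest difference, the 5 genes with the highest wild-type average, the 3 smallest differences in each direction, and the genes on 12 role lists. The set and the lists were chosen with earlier results of these data known, and the role of each of the 61 genes on no list was assigned after its values had been seen. Promoters are RefSeq sequences of GRCm38.p6. The functions that read and sort rows were tested on made-up rows. Genes without a RefSeq window, among them *Nup210l*, *Capza3* and *Adam18*, entered no motif count. A few genes of the set enter the counts and medians but are not reported by name here.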

Additional observations from a re-analysis of the deposited data

How the results depend on the processing

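The values rest on group averages of rows that the authors had selected, so signal above background, spread between mice and genes without a row could not be assessed. No paired analysis was possible because the table has no values of single mice, which also kept the analysis without each mouse from being run. Differences re-centred on the table's median left 0 lower genes past a linear fold of 2 (from 107), moved the median difference of the 107 lower genes from -1.32 to -0.18 and that of the 21 higher genes from 1.53 to 2.67, which follows from subtracting -1.145 from every row. A linear fold of 3 left 17 lower genes with a median of -1.73 and 9 higher genes with a median of 1.85. The class Coding alone gave 64 lower genes (-1.36) and 9 higher genes (1.54). Without the exclusion of meiosis and fertilization terms there were 163 lower genes (-1.29) and 23 higher genes with a median of 1.52. The term spermatogenesis alone moved the medians to -1.31 and 1.54, and the use of all symbols that a row names to -1.33 and 1.54, with counts within 1.5 times of the main ones. Leaving out the X-linked germ cell-less relatives, an alternative chosen after seeing the data, moved the median of the lower genes to -1.31. A minimum average of 6 in either genotype, and the row with the largest difference for a gene, left the counts and the medians of the set as they were. Both outcomes were fixed in advance. Under the minimum in both genotypes lay 0 genes, and the row used for *Gm14345* already had the larger difference.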
